A study of Mus musculus with 55 samples.

Results

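The genes described here are hepatocyte growth factor (Hgf), its receptor (Met), the proteases that can activate the growth factor (Hgfac, Hpn, St14 and Plau), the urokinase receptor (Plaur) and 2 inhibitors of the activating proteases (Spint1 and Spint2). They were taken by symbol, 9 of the 24478 symbols in the deposited table. Where a symbol had several transcript rows, the one with the largest average over the 55 libraries was kept, which applied to 3 genes. The 55 libraries came from C57B/L6 mice. Normal liver gave 27 of them, and 28 came from mice after partial hepatectomy (PH), the surgical removal of liver lobes. The labels name no other genotype or agent and give no time after surgery. Cells were sorted by flow cytometry into TRIzol as 10 populations, which the labels name as hepatocytes (HC), clonal biliary epithelial cells (cBEC), biliary epithelial cells (BEC), non progenitor ducts (NPD), endothelial cells (EC), liver sinusoidal endothelial cells (LSEC), Kupffer cells (KC, the resident macrophages), blood cells, Thy1 cells and hepatic stellate cells (HSC). Normal liver gave 4 libraries each of HC, cBEC and BEC, 3 of LSEC and 2 of each other population. After PH there were 5 of LSEC, 4 of HC, 3 each of EC, KC and HSC, and 2 of each other population. Nothing in the labels says that replicates came from separate animals, so the tests measure the spread between libraries, which may be technical. Levels are FPKM, fragments scaled to transcript length and library size, and can therefore be set side by side between genes.

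Hepatocyte growth factor is made by mesenchymal cells as an inactive single chain bound to the matrix. Cleavage by a serine protease turns it into the form that activates MET, a receptor tyrosine kinase of epithelial cells, and MET signalling is a known driver of hepatocyte growth in the regenerating liver. Hgfac encodes a circulating activator, Hpn (hepsin) and St14 (matriptase) encode membrane-bound activators, and Plau encodes urokinase, which binds the receptor encoded by Plaur and activates plasminogen. Spint1 and Spint2 encode the Kunitz-type inhibitors HAI-1 and HAI-2, which block the membrane-bound activators and the circulating one.

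In the authors' mm9 coordinates, Hgf lies on chromosome 5 (16059719 to 16125257, plus strand) and Hgfac on the same chromosome (35384158 to 35391110, plus strand). Met lies on chromosome 6 (17413957 to 17523980, plus strand) and Spint1 on chromosome 2 (119063096 to 119075249, plus strand). Chromosome 7 holds Hpn (31883744 to 31900345, minus strand), Spint2 (30041349 to 30066996, minus strand) and Plaur (25247502 to 25260987, plus strand). St14 lies on chromosome 9 (30896175 to 30939384, minus strand) and Plau on chromosome 14 (21655884 to 21662610, plus strand). Each of these spans covers a whole transcript, exons and introns together.

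Promoters are shown for 4 genes found in the duct sorts (Spint1, Spint2, Hpn and Plaur, of which Plaur also rose after PH in NPD and LSEC), and for Hgf, which was low in those sorts. RefSeq windows (GRCm38.p6, a later build than that of the table) were given for 7 of the 9 genes. Each line holds the 250 bases before the RefSeq transcript start, from 5′ to 3′ on the gene's strand. As a check, the bases just after the start were sought in annotated transcripts of the same gene. They were found for Hgf but not for Spint1, Spint2, Hpn and Plaur, so this check did not bear out these 4 windows. Capitals mark a GC box (GGGCGG, or CCGCCC where it lies on the other strand), a short motif bound by Sp1-type factors, and in Plaur also an AP-1 site (TGANTCA, which reads the same on both strands).
Spint1 (chr2:119237110-119237359, plus strand): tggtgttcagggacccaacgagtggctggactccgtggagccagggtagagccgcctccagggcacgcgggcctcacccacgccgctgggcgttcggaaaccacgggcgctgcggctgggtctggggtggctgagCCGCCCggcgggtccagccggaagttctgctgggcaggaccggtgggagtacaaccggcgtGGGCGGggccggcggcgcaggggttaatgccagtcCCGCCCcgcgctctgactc
Spint2 (chr7:29281978-29282227, minus strand): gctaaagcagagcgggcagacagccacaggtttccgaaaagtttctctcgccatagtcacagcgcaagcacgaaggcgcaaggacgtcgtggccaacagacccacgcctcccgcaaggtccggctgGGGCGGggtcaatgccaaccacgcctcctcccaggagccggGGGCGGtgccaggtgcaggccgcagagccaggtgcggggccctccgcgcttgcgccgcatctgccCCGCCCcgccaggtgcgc
Hpn (chr7:31115327-31115576, minus strand): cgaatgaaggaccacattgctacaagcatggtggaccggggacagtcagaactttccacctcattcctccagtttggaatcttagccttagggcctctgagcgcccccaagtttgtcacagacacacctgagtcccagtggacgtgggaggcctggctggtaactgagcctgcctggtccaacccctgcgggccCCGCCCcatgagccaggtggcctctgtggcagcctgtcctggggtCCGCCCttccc
Plaur (chr7:24462233-24462482, plus strand): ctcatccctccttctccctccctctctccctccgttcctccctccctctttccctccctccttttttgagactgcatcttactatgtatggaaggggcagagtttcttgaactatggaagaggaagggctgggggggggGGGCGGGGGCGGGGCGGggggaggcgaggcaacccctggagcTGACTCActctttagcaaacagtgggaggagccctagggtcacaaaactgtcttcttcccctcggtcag
Hgf (chr5:16553245-16553494, plus strand): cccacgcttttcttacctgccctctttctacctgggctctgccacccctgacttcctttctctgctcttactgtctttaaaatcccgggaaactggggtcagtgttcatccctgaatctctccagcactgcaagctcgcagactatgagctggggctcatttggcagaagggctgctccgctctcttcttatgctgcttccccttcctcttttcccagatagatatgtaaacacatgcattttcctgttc
Spint1 and Spint2 each held 3 GC boxes, Hpn held 2, Plaur held 3, of which a pair overlap by a base, and Hgf held 0. Hpn and Hgf each have a second window, not printed, with 0 GC boxes and 48% and 51.2% of G and C. For Hgf the printed window ends upstream of the second (16553494 against 16553900). The Hgf transcript row used for levels starts at 16059719 in mm9, downstream of a short Hgf transcript at 16059313. The 2 windows end as far apart as these 2 transcripts start, so by position the printed window precedes the short transcript. By the same reckoning the second window, not printed, precedes the transcript measured. Of the other genes, Met held 3 GC boxes and Hgfac 0. Among all 32851 windows of the same length, 32.7% held at least 1 GC box on either strand. The AP-1 site was found in Plaur and in Met among the 7 genes, and in 6.75% of all windows. A TATA box (TATAAA) or a CCAAT box (CCAAT), searched on both strands, was in none of these windows, against 12.4% and 33.85% of all windows. The share of G and C was 72.8% in Spint1, 69.6% in Spint2, 61.6% in Hpn, 59.6% in Plaur and 50.8% in Hgf, where the median of all windows was 52.4%. A match is a stretch of letters and not evidence of binding.

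FPKM summed to between 624726 and 1203197 in a library, and the read depth is unknown. Every HC library summed to 960918 or more and every library of another sort to 848630 or less. HC values are also listed with fewer decimals than the rest. The part of this in comparisons of HC with other sorts was not tested. Sorted populations were checked with 9 lists of 6 marker genes, scored as the mean log2(FPKM + 1), and the plot of marker scores shows those that bear on the genes here. HC scored 11.8 to 12.2 for hepatocyte markers, cBEC and BEC 8.83 to 9.42 for duct markers, EC and LSEC 8.48 to 9.06 for endothelial markers and HSC 8.58 to 9.06 for stellate markers. KC scored 10.6 to 11.9 for Kupffer markers, LSEC 7.95 to 10.4 for sinusoidal markers and Thy1 cells 4.30 to 7.60 for portal fibroblast markers. NPD scored higher for mesothelial markers (9.08 to 9.49) than for duct markers (7.36 to 8.15), and Thy1 cells scored 7.08 to 8.49 for mesothelial markers. The blood sort went against its label after PH, with a blood score of 3.72 to 4.09 and a Kupffer score of 10.3 to 11.1, where normal blood libraries had 8.22 to 8.25 and 5.63 to 6.37. Normal KC also carried sinusoidal endothelial markers (8.66 to 9.13), which were at 5.11 to 6.05 in PH KC. Many values of the most abundant hepatocyte transcripts were listed at exactly 0 in other sorts. Among genes that reached a mean of 10 FPKM in at least 5 of the 9 other populations, 7.48% of the values there were 0 for genes with 300 FPKM or more in hepatocytes, 0.945% for genes with 30 to 300 FPKM, 0.354% for genes with 1 to 30 FPKM and 1.37% for genes under 1 FPKM. For genes with 300 FPKM or more the share ran from 0% in Thy1 cells to 19.8% in PH KC. One library titled as PH cBEC replicate 1 carries the treatment tag normal and was kept as titled. These are bulk libraries, so fewer cells of a type and less RNA per cell cannot be told apart.

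**Figure D1:**
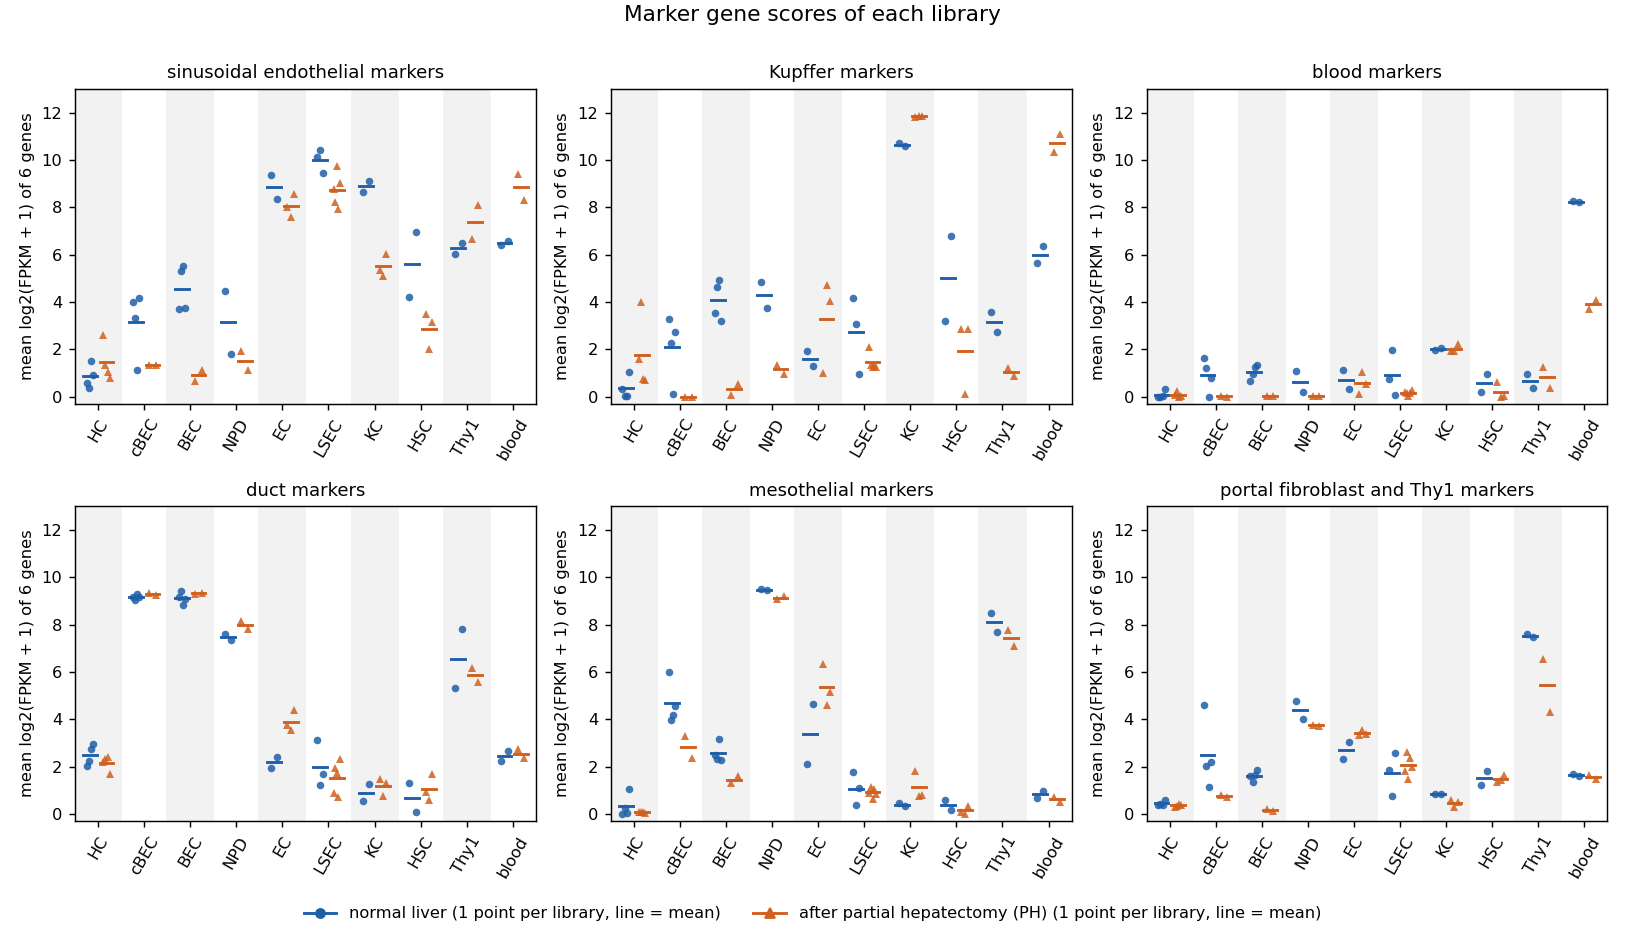
Marker scores of each library, the mean log2(FPKM + 1) of 6 genes per list, by sorted population, with 1 point per library (circles normal liver, triangles after PH) and a line at each group's mean. The Kupffer score of the blood sort lies at 5.63 to 6.37 in normal liver and 10.3 to 11.1 after PH, and the sinusoidal score of KC lies at 8.66 to 9.13 and 5.11 to 6.05.

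Levels by population were compared in a single fit of all 20 groups, with p-values adjusted over all genes and all 45 pairs of populations. Of 405 comparisons of a gene between 2 populations, 275 passed in normal liver and 283 after PH, where 42.2% and 38.6% of comparisons passed over all genes.

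**Figure D2:**
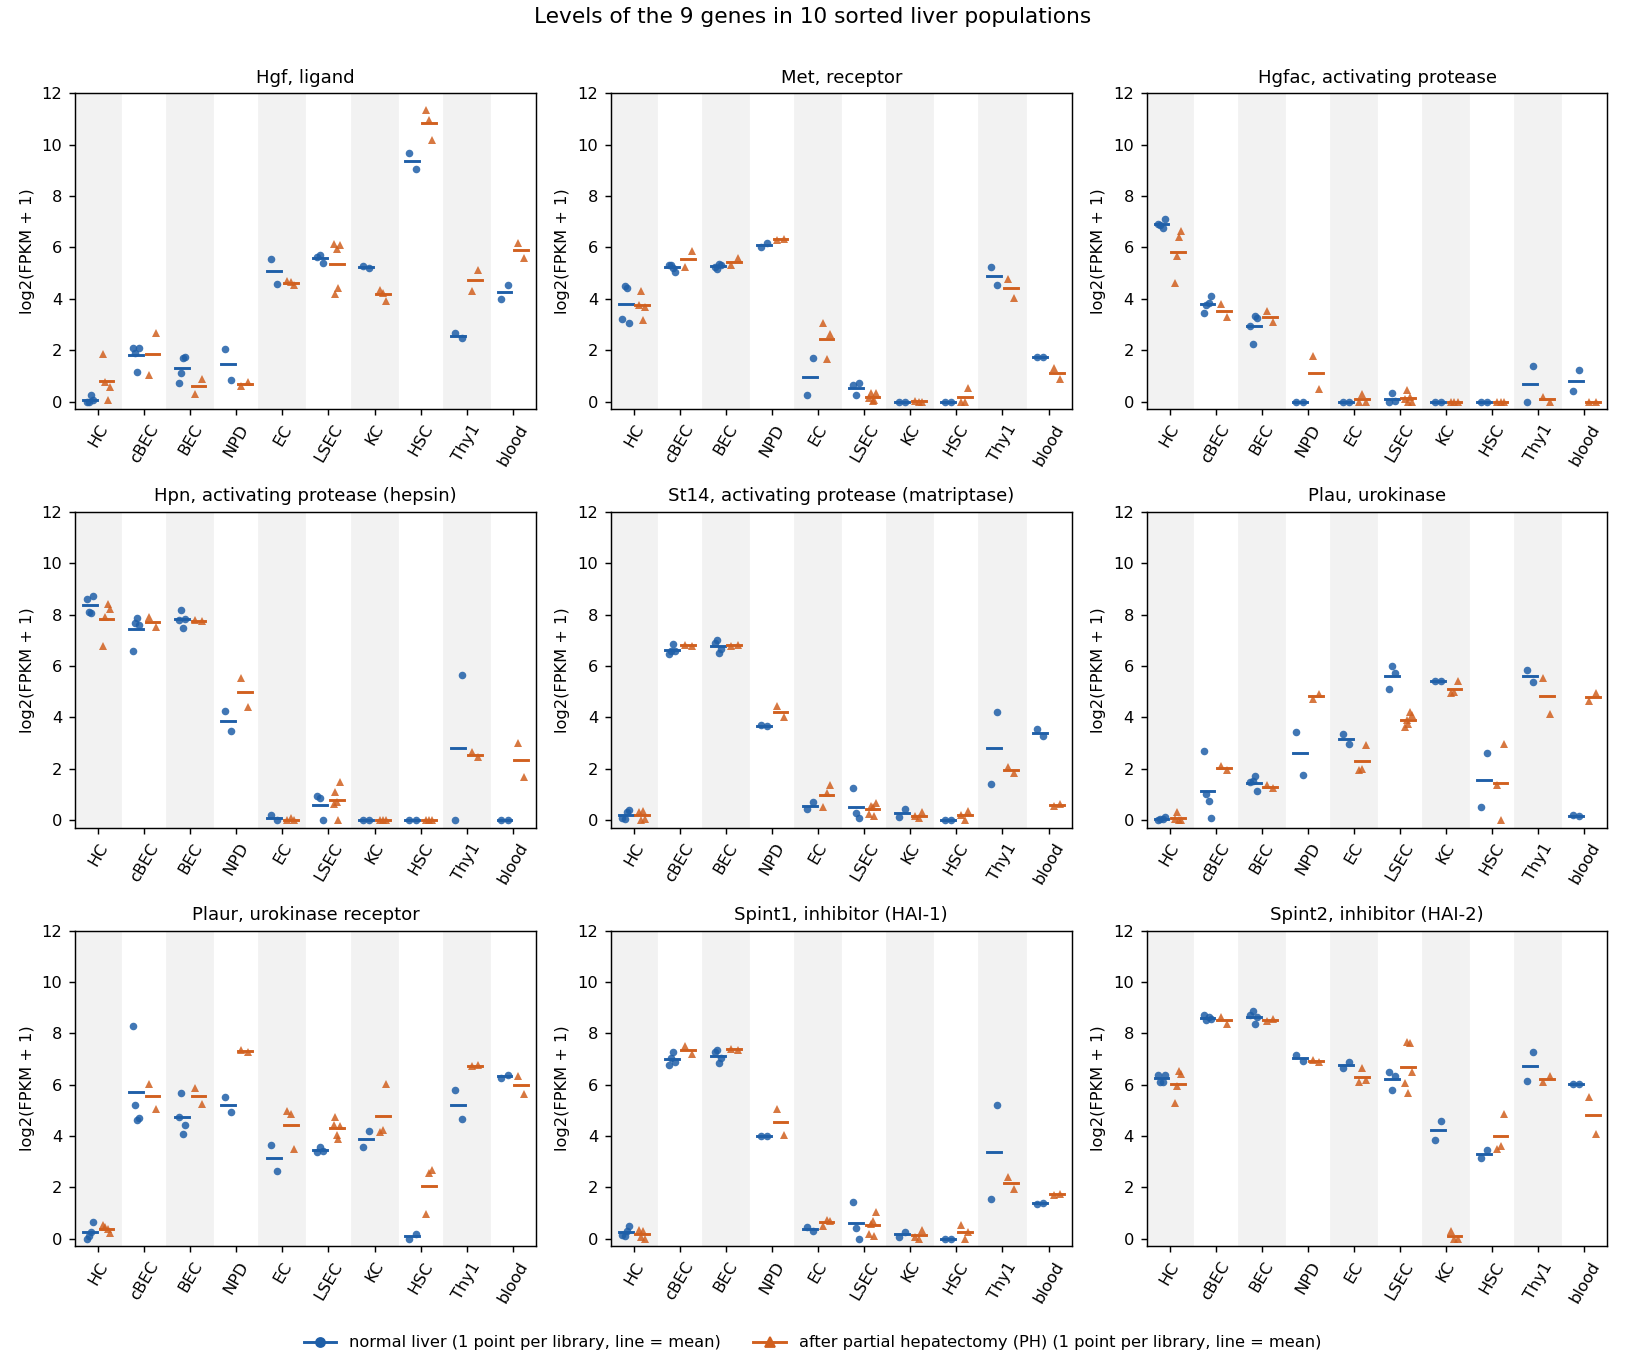
Levels of the 9 genes as log2(FPKM + 1) by sorted population, with 1 point per library (circles normal liver, triangles after PH) and a line at each group's mean. Hgf is highest in HSC, Met in NPD, cBEC, BEC, Thy1 and HC, Hgfac in HC, Hpn in HC, BEC and cBEC, and St14, Spint1 and Spint2 in BEC and cBEC.

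Hgf, the ligand, was highest in stellate cells. In normal HSC the 2 libraries had 816 and 532 FPKM, and in PH HSC the 3 libraries had 2594, 2016 and 1171 FPKM. LSEC, next in normal liver, had 49.1, 51.0 and 40.8 FPKM. The distance from HSC to LSEC was 3.79 on the log2(FPKM + 1) scale (SE 0.50, limma adjusted p = 2.74e-08), and every HSC library lay above every library of the other sorts. KC (37.9 and 35.4 FPKM), EC (46.3 and 23.2 FPKM) and LSEC did not pass the test against their neighbours in this order. The blood sort followed with 14.7 and 22.5 FPKM, above Thy1 cells with 5.33 and 4.51 FPKM (difference 1.70, SE 0.55, adjusted p = 0.0102). Epithelial cells had little Hgf. It was at 1.23 to 3.29 FPKM in normal cBEC, 0.665 to 2.29 in BEC, 3.17 and 0.773 in NPD, and 0 to 0.180 in HC. After PH the next highest sort below HSC was the blood sort, at a distance of 4.95 (SE 0.50, adjusted p = 4.51e-11).

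PH libraries of HSC all lay above the normal ones for Hgf. The normal mean was 674 ± 201 FPKM (SD, n = 2) and the PH mean 1927 ± 716 FPKM (SD, n = 3), which is a difference of 1.47 on the log2 scale (SE 0.39) that did not pass the test among HSC libraries alone (limma adjusted p = 0.415). A single fit of all 20 groups gave adjusted p = 0.0471. Only 0.00853% of genes were called in HSC, 1 of 11729. The stellate marker score was 8.58 and 9.06 in the normal HSC libraries and 8.61 to 8.67 in the PH libraries, with 0 of 6 markers at 0. Normal HSC replicate 2, with the lower Hgf, had a Kupffer score of 6.80 and a sinusoidal score of 6.97, against 3.19 and 4.22 in replicate 1 and at most 2.87 and 3.49 after PH. The part of these markers in the result was not tested.

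In KC, Hgf fell after PH. The 2 normal libraries had 37.9 and 35.4 FPKM and the 3 PH libraries 19.4, 17.9 and 14.0, with no overlap, a difference of -1.07 (SE 0.17, adjusted p = 0.00763). The call was lost without normal KC replicate 1 (adjusted p = 0.073), without normal KC replicate 2 (0.0609) and in the single fit of all groups (0.151). The sinusoidal endothelial score of KC was 8.66 and 9.13 in normal libraries and 5.11 to 6.05 after PH, with 6 of 6 markers above 0 in every KC library. The part of these markers in the fall was not tested.

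In the blood sort, Hgf rose from 14.7 and 22.5 FPKM to 71.4 and 47.3 FPKM, a difference of 1.62 (SE 0.30, adjusted p = 0.00877), which was lost without normal blood replicate 1 (1.33, adjusted p = 0.0767). Kupffer markers in this sort went from 5.63 and 6.37 to 10.3 and 11.1, and sinusoidal markers from 6.39 and 6.58 to 9.39 and 8.30. Both marker lists had 6 of 6 genes above 0 in all 4 libraries, and their part in the rise was not tested. Thy1 cells had 5.33 and 4.51 FPKM of Hgf in normal liver and 18.8 and 33.8 after PH. These groups did not overlap, and the difference of 2.15 (SE 0.34) did not pass within the sort (adjusted p = 0.130) but did in the single fit (0.00656). The Thy1 library with the most Hgf, PH replicate 2, had the highest sinusoidal score (8.11) and the lowest portal fibroblast score (4.30) of the Thy1 libraries, and the part of these markers was not tested.

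In the endothelial sorts Hgf did not pass the test. LSEC had 40.8 to 51.0 FPKM in normal liver and, after PH, 69.9, 17.3, 60.5, 20.1 and 66.6 FPKM in replicates 1 to 5 (difference -0.22, SE 0.48, adjusted p = 0.810). The PH libraries thus fell into 3 above all normal ones and 2 below them. Those 2, replicates 2 and 4, also had the lowest sinusoidal scores (8.25 and 7.95, against 8.78 to 9.75 in the other 3), while their endothelial scores were 8.67 and 9.05, against 8.90 to 9.06 in the others. EC had 46.3 and 23.2 FPKM and then 24.6, 24.0 and 22.1 (difference -0.46, SE 0.29, adjusted p = 0.624).

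The Hgf symbol has 5 rows in the table, and 3 of the 4 others were at 0.946 to 0.951 of the row used, as a mean over all libraries. The fifth is a short transcript (chromosome 5, 16059313 to 16079762 in mm9) that ends well inside the gene. In the libraries with at least 10 FPKM of Hgf, its level was 21.6% to 48.2% of the row used. How reads shared by these transcripts were divided is not given in the sources used here, so this share is uncertain.

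Met, the receptor, was highest in the sort labelled non progenitor ducts, followed by BEC and cBEC, and was present in hepatocytes. NPD had 62.9 and 71.2 FPKM in normal liver and 78.2 and 80.1 after PH. These libraries scored higher for mesothelial than for duct markers, as given above, and the part of either in the Met level was not tested. BEC had 36.8, 34.6, 40.3 and 38.6 FPKM and then 39.1 and 46.6, and cBEC had 38.6, 38.8, 36.1 and 32.1 FPKM and then 36.9 and 57.3. NPD lay above every BEC and cBEC library, but in normal liver its difference passed against cBEC (0.87, SE 0.35, adjusted p = 0.042) and missed against BEC (0.82, SE 0.35, adjusted p = 0.0555). Thy1 cells had 36.8 and 22.4 FPKM and then 26.3 and 15.4. Besides the mesothelial markers given above they carried duct markers (5.31 and 7.81, then 6.17 and 5.56), and the part of these in their Met level was not tested.

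Hepatocytes had less Met than ducts. The 4 normal HC libraries had 8.28, 21.3, 20.6 and 7.37 FPKM and the 4 PH libraries 12.7, 19.0, 8.09 and 12 FPKM. The PH libraries all lay within the range of the normal ones, and the difference of -0.05 (SE 0.38, adjusted p = 0.956) did not pass. Normal HC lay 1.47 below BEC on the log2 scale (SE 0.28, adjusted p = 3.5e-05) and 1.10 below Thy1 cells (SE 0.35, adjusted p = 0.00901).

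Stellate, Kupffer and sinusoidal endothelial sorts had almost no Met. It was listed at 0 in both normal KC and both normal HSC libraries, and at 0 in 2 of 3 PH libraries of each. LSEC had 0.196 to 0.631 FPKM in normal liver and 0.00945 to 0.263 after PH. The blood sort had 2.29 and 2.34 FPKM and then 1.47 and 0.839 (difference -0.64, SE 0.22, adjusted p = 0.0543). EC had 0.180 and 2.26 FPKM in normal liver and 7.27, 2.18 and 5.15 after PH, a difference of 1.47 (SE 0.57) that did not pass within EC (adjusted p = 0.433) and did in the single fit (0.0297). EC mesothelial markers stood at 2.12 and 4.65 in normal libraries and at 6.32, 4.58 and 5.13 after PH, and duct markers at 1.95 and 2.40 and then 3.55 to 4.41, so the EC library with the most Met also had the highest mesothelial score. Their part in the Met level was not tested. After PH, EC lay 2.27 above LSEC (SE 0.29, adjusted p = 1.99e-08).

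Ligand and receptor were mostly found in different sorts, as the plot of Hgf against Met by library shows. Over the 20 group means of log2(FPKM + 1), Pearson's r between Hgf and Met was -0.80. Thy1 cells after PH, singled out after the values were seen, had both above 15 FPKM in each library. These libraries were mixed by their markers, with sinusoidal scores of 6.65 and 8.11, mesothelial scores of 7.78 and 7.08 and duct scores of 6.17 and 5.56. The library with more Hgf had less Met. Whether the same cells held both was not tested. The 2 genes share the same libraries in each group, so r is a description.

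**Figure D3:**
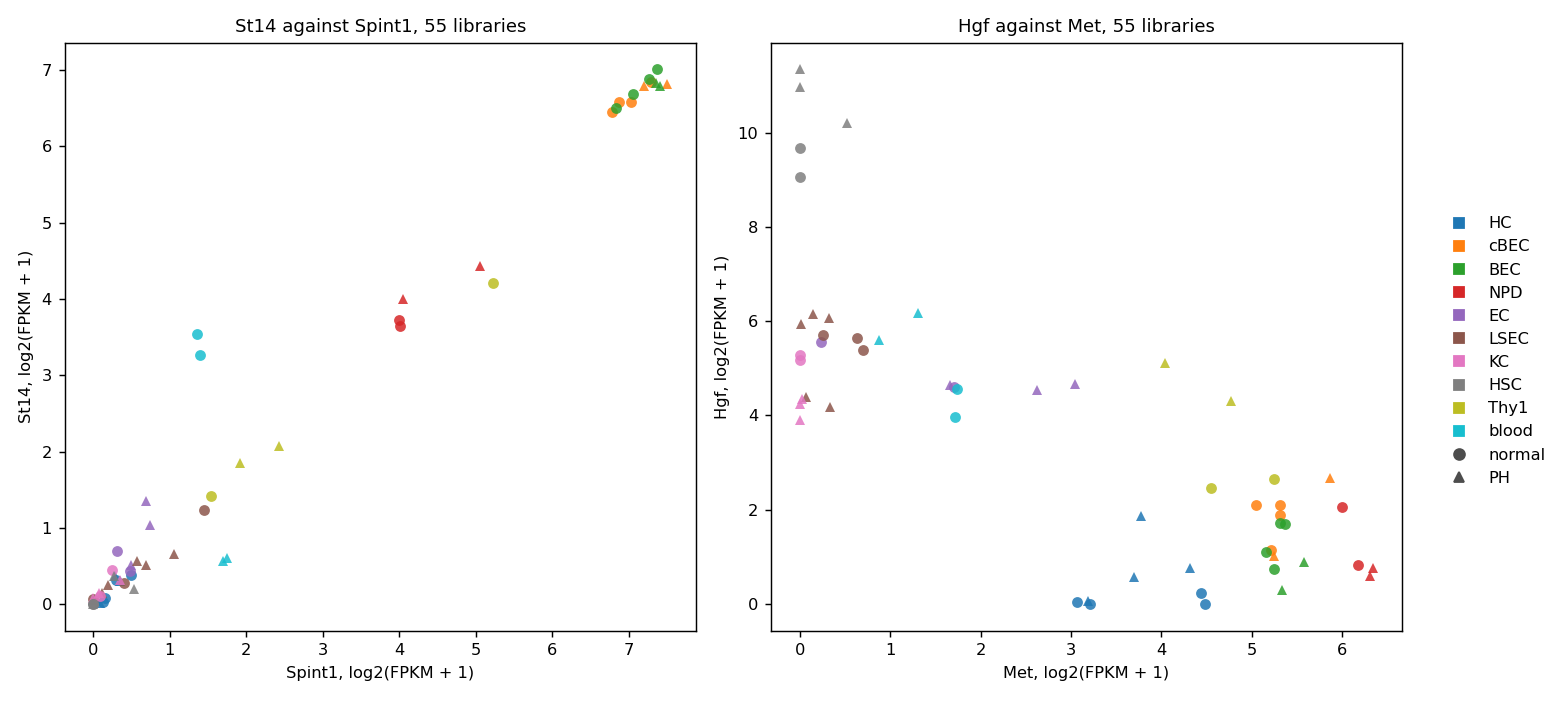
Each library by its level of 2 genes, both as log2(FPKM + 1), coloured by population, with circles for normal liver and triangles for PH. St14 and Spint1 lie along a line from the duct sorts down to 0, with the 2 normal blood libraries off it, and Hgf is high where Met is low.

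Hgfac, the circulating activator, was highest in hepatocytes. The 4 normal HC libraries had 118, 115, 109 and 137 FPKM, and the 4 PH libraries had 23.5, 49.6, 83.1 and 98.1 FPKM. Every PH library lay below every normal one, a difference of -1.08 (SE 0.39) that did not pass within HC (limma adjusted p = 0.143, where 6.19% of genes were called) and did in the single fit (0.0146). PH HC replicate 1 was lowest here and also for Hpn and Spint2. cBEC (9.79, 12.4, 13.3 and 16.2 FPKM in normal liver) and BEC (6.59, 3.78, 9.18 and 8.52) came next, cBEC above BEC by 0.84 (SE 0.29, adjusted p = 0.0188) and HC above cBEC by 3.13 (SE 0.29, adjusted p = 6.04e-12). After PH, cBEC had 13 and 8.72 FPKM and BEC 10.4 and 7.50. Every other library was at or below 2.39 FPKM. Hgfac was listed at 0 in all 5 KC and all 5 HSC libraries. It is abundant in hepatocytes, and values of such transcripts were at times listed at 0 in other sorts, as given above. The part of this here was not tested.

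Hpn, the membrane protease hepsin, was shared by hepatocytes and the clonal and biliary duct sorts. Normal HC had 389.6, 278, 264 and 426 FPKM, normal BEC 224, 287, 178 and 227, and normal cBEC 95.8, 204, 236 and 193. HC and cBEC each overlapped BEC, while every HC library lay above every cBEC library, and neither HC against BEC (0.56, SE 0.55, adjusted p = 0.477) nor HC against cBEC (0.94, SE 0.55, adjusted p = 0.180) passed. NPD had far less, with 18.1 and 10.2 FPKM, and cBEC lay 2.72 above NPD after PH (SE 0.77, adjusted p = 0.00397). After PH, HC had 108, 239, 337 and 301 FPKM (difference -0.55, SE 0.36, adjusted p = 0.416), BEC 219.6 and 215, cBEC 237 and 181, and NPD 45.4 and 20.3 (difference 1.10, SE 0.45, adjusted p = 0.158). The PH NPD libraries lay above both normal ones, as did their duct scores (8.15 and 7.82 against 7.61 and 7.36).

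Outside these sorts, Hpn was low or listed at 0. It was listed at 0 in all KC and HSC libraries and did not pass 1.8 FPKM in LSEC. In the blood sort Hpn rose, listed at 0 in both normal libraries and at 7.09 and 2.20 FPKM after PH (difference 2.35, SE 0.47, adjusted p = 0.0109). Since the normal level is 0, the size of this difference is set by the pseudocount. Hpn is abundant in hepatocytes, and values of such transcripts were at times listed at 0 in other sorts, as given above. The part of this in the zeros of KC, HSC and normal blood was not tested. The call was lost without normal blood replicate 1 (0.0928) or replicate 2 (0.0905), and the hepatocyte marker score, 0 with 6 of 6 markers at 0 in both normal libraries, was 2.26 in the PH library with more Hpn and 0 in the other. In Thy1 cells a single normal library, replicate 2, had 48.9 FPKM and the other was listed at 0. The duct score was 7.81 in replicate 2 and 5.31 in replicate 1.

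St14, the membrane protease matriptase, was a gene of the duct sorts. BEC had 117, 128, 89.5 and 102 FPKM in normal liver and cBEC 86.7, 95.2, 114 and 94.6, with overlap and no difference that passed (0.15, SE 0.29, adjusted p = 0.767). NPD had 12.2 and 11.5 FPKM, below cBEC by 2.93 (SE 0.36, adjusted p = 4.16e-09). After PH, BEC had 110.2 and 113 FPKM, cBEC 112 and 110.3, and NPD 20.6 and 15, and St14 passed the PH test in none of these 3 sorts (differences 0.05, 0.19 and 0.53). Hepatocytes, whose Hpn overlapped that of BEC, had 0.30 FPKM of St14 or less in every library.

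The blood sort also held St14, and there it fell after PH. The normal blood libraries had 10.7 and 8.63 FPKM and the PH ones 0.479 and 0.526, a difference of -2.82 (SE 0.20, limma adjusted p = 0.000998) that passed under all 11 alternatives. Blood markers fell in the same libraries, from 8.25 and 8.22 to 3.72 and 4.09, and the part of that shift in the result was not tested. Normal Thy1 replicate 2 stood apart as for Hpn, with 17.5 FPKM of St14 against 1.66 in replicate 1.

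Spint1, the inhibitor HAI-1, followed St14. Normal BEC had 153, 164, 113 and 132 FPKM, normal cBEC 109, 129.5, 155 and 116, and normal NPD 14.9 and 15. After PH, BEC had 168 and 163 FPKM, cBEC 180.0 and 146, and NPD 32.3 and 15.5. In normal liver BEC and cBEC overlapped (difference 0.14, SE 0.37, adjusted p = 0.844), and cBEC lay 2.99 above NPD (SE 0.45, adjusted p = 4.29e-07). Hepatocytes had 0.400 FPKM or less. Over the 20 group means r with St14 was 0.98, the highest between any 2 of the 9 genes. The ratio of St14 to Spint1 ran from 0.735 to 0.818 in normal cBEC, 0.763 to 0.790 in normal BEC and 0.767 to 0.814 in normal NPD, and from 0.622 to 0.968 in the same sorts after PH. The blood sort departed from that ratio in normal liver, with 1.56 and 1.63 FPKM of Spint1 beside 10.7 and 8.63 of St14. Spint1 passed the PH test in none of the 5 populations where it was tested.

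Spint2, the inhibitor HAI-2, was found in more sorts than Spint1. BEC had 416, 465, 327 and 394 FPKM in normal liver and cBEC 421, 362, 398 and 376. NPD had 143 and 121, below cBEC by 1.56 (SE 0.40, adjusted p = 0.00144). Thy1 cells (69.7 and 155), EC (100.2 and 117), hepatocytes (82.4, 68.1, 68.3 and 81.7), LSEC (88.4, 55.1 and 79.7) and the blood sort (63.3 and 64.4) lay close together, and no 2 neighbours in that order passed. Hepatocytes thus had Spint2 and Hpn but almost no Spint1 or St14. After PH the duct levels were 357 and 374 in BEC, 401 and 332 in cBEC and 124 and 118 in NPD, and none passed the test.

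In KC, Spint2 fell after PH. The normal KC libraries had 13.5 and 22.9 FPKM, and the PH ones had 0.224, 0 and 0, a difference of -4.12 (SE 0.27, adjusted p = 0.00138). The call passed under all 12 alternatives, with a difference between -6.90 and -3.76. Endothelial sorts express more Spint2 than KC do, and endothelial and sinusoidal markers fell in the same libraries, the endothelial score from 7.27 and 7.56 to 4.05 to 5.09. Spint2 is also abundant in hepatocytes. Of genes at 10 FPKM or more in both normal KC libraries and at 30 to 300 FPKM in hepatocytes, 0.550% were listed at 0 in at least 2 of the 3 PH KC libraries. That share was 0% for genes under 1 FPKM in hepatocytes, 0.0237% at 1 to 30 FPKM and 4.95% at 300 FPKM or more. Neither was tested as a source of the fall.

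Spint2 split the PH libraries of LSEC in the opposite way to Hgf. They had 65.5, 202, 49.7, 194 and 89.7 FPKM in replicates 1 to 5, so the 2 libraries with low Hgf and low sinusoidal scores were the 2 with high Spint2. The difference from normal LSEC was 0.49 (SE 0.46, adjusted p = 0.557). In the blood sort Spint2 was at 63.3 and 64.4 FPKM and then 45.3 and 16.0, a difference of -1.21 (SE 0.49) that did not pass within the sort (adjusted p = 0.0846) and did in the single fit (0.0349). The marker shift of this sort after PH, given above, was not tested for its part. HSC had the least Spint2 of the normal sorts, 7.89 and 9.87 FPKM, and 10.4, 11.4 and 27.8 after PH.

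Plau, urokinase, was highest in LSEC, Thy1 cells and KC in normal liver. LSEC had 33.9, 63.2 and 51.6 FPKM in normal liver, Thy1 cells 55.9 and 40.1 and KC 42.0 and 41.5, and these 3 did not differ from each other by the test. KC lay 2.25 above EC, with 9.30 and 6.86 FPKM (SE 0.62, adjusted p = 0.00284). NPD had 9.91 and 2.41 FPKM, normal cBEC at most 5.53, normal BEC at most 2.29 and hepatocytes 0.240 or less. Normal HSC had 0.442 and 5.20 FPKM, and the normal blood sort 0.141 and 0.111.

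After PH, Plau fell in LSEC. The 5 PH libraries had 11.2, 13.9, 12.2, 17.8 and 16.1 FPKM, all below the lowest normal library at 33.9, a difference of -1.70 (SE 0.22, limma adjusted p = 0.00284) that passed under 14 of 15 alternatives. The 2 libraries with the lowest sinusoidal scores had 13.9 and 17.8 FPKM, against 11.2, 12.2 and 16.1 in the other 3. Kupffer markers, of a cell type that also expressed Plau, scored 4.18, 3.06 and 0.94 in the normal LSEC libraries and 1.23 to 2.09 after PH, beside 33.9, 63.2 and 51.6 FPKM of Plau in the same normal libraries, and their part in the fall was not tested. In KC the level was 42.0 and 41.5 and then 29.8, 30.9 and 42.3 FPKM, which did not pass (difference -0.29, SE 0.18, adjusted p = 0.255) but did when PH KC replicate 3 was left out (adjusted p = 0.00788). EC went from 9.30 and 6.86 to 2.83, 3.01 and 6.66 FPKM without overlap (difference -0.88, SE 0.37, adjusted p = 0.463).

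In the blood sort Plau rose. The normal libraries had 0.141 and 0.111 FPKM and the PH libraries 24.0 and 29.8, a difference of 4.62 (SE 0.21, adjusted p = 0.000766) that passed under all 11 alternatives. The PH levels were close to those of PH KC (29.8, 30.9 and 42.3), and Kupffer markers rose in the same libraries, as given above, with a part that was not tested. NPD had 9.91 and 2.41 FPKM and then 25.4 and 29.2, all PH libraries above the normal ones, a difference of 2.21 (SE 0.55) just short of the threshold (adjusted p = 0.0558). It passed without normal NPD replicate 1 (3.05, 0.00339), without normal NPD replicate 2 (1.37, 0.00745) and in the single fit (0.0141).

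Plaur, the urokinase receptor, was widely expressed outside hepatocytes and stellate cells. The blood sort had 76.6 and 81.5 FPKM in normal liver, Thy1 cells 53.7 and 24.3, NPD 44.4 and 29.5 and BEC 26.1, 49.4, 16.0 and 20.6. Normal cBEC had 309, 36.4, 23.5 and 24.7 FPKM, with replicate 1 far above the rest. That library also had the most Plau (5.53 FPKM), the least Hpn (95.8 FPKM), and the highest mesothelial and portal fibroblast scores of normal cBEC (6.02 and 4.58, against at most 4.57 and 2.20). Hepatocytes had 0.550 FPKM or less and normal HSC were listed at 0 and at 0.129.

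Plaur rose after PH in NPD, from 44.4 and 29.5 FPKM to 162 and 155, a difference of 2.10 (SE 0.24, limma adjusted p = 0.0117). The call was lost without PH NPD replicate 1 (adjusted p = 0.166) or replicate 2 (0.141), with a difference of 2.07 and 2.13. Mesothelial markers of NPD went from 9.49 and 9.46 to 9.08 and 9.19, and Kupffer markers from 4.84 and 3.73 to 1.34 and 0.96. Duct markers went from 7.61 and 7.36 to 8.15 and 7.82. The part of these markers in the rise was not tested. In LSEC Plaur rose too, from 9.51, 10.8 and 9.61 FPKM to 20.5, 25.5, 15.6, 14.0 and 20. Every PH library lay above every normal one (difference 0.85, SE 0.20, limma adjusted p = 0.0282). This call was lost under 8 of 15 alternatives, among them leaving out any 1 of the 3 normal libraries (0.0714 to 0.102), PH replicate 1 (0.0771) or PH replicate 5 (0.0652). Leaving out either library with a low sinusoidal score kept the call, but each of these fits still held the other such library. The part of sinusoidal markers in the rise was not tested.

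In 2 more sorts the PH libraries lay above the normal ones without passing. Such separation was common, with no overlap in 25 of the 63 tests of a PH response in the genes described here. Its share over all genes was not counted, and groups this small can separate by order alone, so it is only a description. Thy1 cells went from 53.7 and 24.3 to 104 and 108 FPKM (difference 1.53, SE 0.42, adjusted p = 0.197), and HSC from 0 and 0.129 to 0.930, 4.86 and 5.46 (difference 1.98, SE 0.76, adjusted p = 0.530). The HSC difference passed in the single fit (0.0375). In EC the level was 11.6 and 5.19 and then 30.5, 27.7 and 10.1 FPKM, and in KC 10.9 and 17.1 and then 16.8, 17.7 and 63.7, and these groups overlapped. BEC had 57.2 and 36.7 FPKM after PH (difference 0.81, SE 0.40, adjusted p = 0.368). In cBEC the difference was -0.15, and 0.71 (adjusted p = 0.297) without the high normal library.

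**Figure D4:**
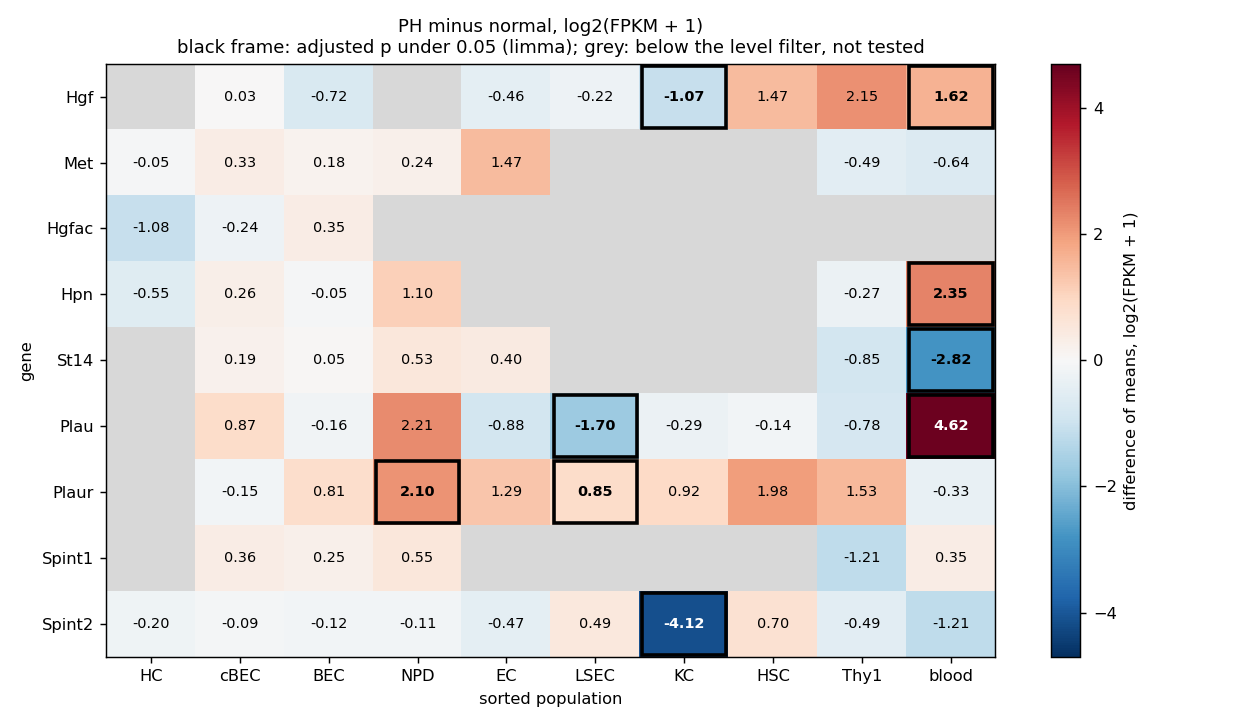
Difference between PH and normal liver on the log2(FPKM + 1) scale for each gene (rows) in each sorted population (columns). Red is higher and blue lower after PH, black frames mark the 9 tests that passed within the population (limma adjusted p under 0.05), and grey marks genes too low to be tested there.

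Over the 90 combinations of a gene and a population, 63 passed the filter of 1 FPKM and were tested for a PH response. Of these, 9 were called, or 14.3%, where 13.4% of all tests were called over the 10 populations. There were 5 rises and 4 falls, against 5.75% and 7.61% of all tests. Another 10 had an unadjusted p under 0.05 without passing, which brings that count to 19 of 63, where 26.2% of all tests had such a p. The share of calls is thus near the background. Blood held 4 of 8 tested genes (64% of all genes called), KC 2 of 4 (36.8%), LSEC 2 of 4 (8.46%) and NPD 1 of 7 (15.2%). None was called of 4 in HC (6.19% of all genes), 9 in cBEC (0.0681%), 9 in BEC (1.81%), 6 in EC (0.0249%), 4 in HSC (0.00853%) and 8 in Thy1 cells (0.00747%). At an unadjusted p under 0.05, HC held 1 of these genes (21.5% of all genes tested there), EC 3 (10.8%), HSC 2 (8.48%), Thy1 2 (18.1%), and cBEC (10.2%) and BEC (16.3%) 0. Without the blood sort, whose PH libraries go against their label, 5 calls were left. In blood the median of all genes also moved, by -0.31 on the log2 scale.

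Responses to PH differed between populations for most of the genes. In an F test over the 10 populations, 6 of the 9 passed (47.8% of all genes did), namely Spint2 (adjusted p = 6e-07), Plau (1.43e-06), St14 (0.000232), Hgf (0.000895), Hgfac (0.0231) and Met (0.0446). Hpn (0.351), Plaur (0.195) and Spint1 (0.581) did not. Without the blood sort, 4 passed, Spint2 (1.03e-06), Hgf (0.0049), Plau (0.0125) and Hgfac (0.0462), where 25.9% of all genes did. St14 (0.669) and Met (0.110) then did not. Hgf went down in KC and up in the blood sort. Plau went down in LSEC and up in the blood sort. The PH blood libraries go against their label, so these rises compare libraries of unlike markers. Among the other sorts, the difference of Hgf was -1.07 in KC and 2.15 in Thy1 cells. That of Plau was -1.70 in LSEC and 2.21 in NPD. Of these 4 differences only the falls passed within their sort.

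Other genes of the pathway were taken from 4 lists of 62 genes in all. The list of MET signalling held 28 genes (adaptors, kinases and regulators downstream of the receptor). Of its 271 tests over the 10 populations, 21 rose and 11 fell, against 5.75% and 7.61% of all tests. In the blood sort, with all 28 genes tested, lay 15 of the rises and 6 of the falls, where 24.3% of all genes rose and 39.7% fell. There Sh3kbp1, an adaptor in receptor endocytosis, fell from 80.9 and 101 FPKM to 14.2 and 20.6. Of the 13 genes of the MET family and its partners, 7 of 105 tests rose and 11 fell, against 5.75% and 7.61% of all tests. Of the rises, 4 were in NPD, among 12 genes of the list tested there. Of all 13024 genes tested in NPD, 15.2% were called and 1257 rose. The 4 rises are named here after their values were seen. They were Cd44, a hyaluronan receptor (difference 3.51, SE 0.22, adjusted p = 0.00637), the syndecan Sdc1 (3.44, SE 0.81, adjusted p = 0.0494), and the integrin subunits Itga6 (1.52, SE 0.25, adjusted p = 0.0227) and Itgb4 (1.14, SE 0.16, adjusted p = 0.0167). Decorin (Dcn), a matrix proteoglycan, fell in NPD (difference -1.47, SE 0.22, adjusted p = 0.0193) and in BEC (-2.22, SE 0.39, adjusted p = 0.0324). In LSEC the co-receptor Nrp1 fell from 472, 492 and 309 FPKM to 149 to 293, and the integrin subunit Itga6 from 22 to 27.4 FPKM to 6.8 to 13.9. The 2 PH libraries with the lowest sinusoidal scores had the least Nrp1 (149 and 163 FPKM). Nrp2 fell in KC, from 48 and 60.5 FPKM to 3.4, 2.53 and 8.65, beside the fall of sinusoidal markers there, and Sdc1 fell in the blood sort (9.47 and 6.26 FPKM, then 1.54 and a listed 0).

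Plasminogen activation, the system that urokinase serves, gave 8 rises and 2 falls in 68 tests of 12 genes, against 5.75% and 7.61% of all tests. Among the rises was that of Serpinb2, which encodes an inhibitor of urokinase. It was at 0.183 and a listed 0 in normal NPD and at 223 and 168 FPKM after PH, and in Thy1 cells it went from 0.086 and 0.104 to 170 and 214 FPKM (difference 7.45, SE 0.25, adjusted p = 0.00481). In LSEC, Anxa2 and S100a10, whose products form a plasminogen receptor, rose by 1.73 (SE 0.27, adjusted p = 0.00628) and 1.15 (SE 0.30, adjusted p = 0.0429), where Plau fell. The PH libraries with the lowest sinusoidal scores, replicates 2 and 4, had the most S100a10 (857 and 1090 FPKM, against 403 to 632 in the other 3) and the most Anxa2, and the part of these libraries in the rises was not tested. S100a10, abundant in hepatocytes like Spint2, fell in KC from 84.6 and 123 FPKM to 0.114, 0 and 0. Lrp1, an endocytic receptor of the low-density lipoprotein receptor family, rose in the blood sort from 7.95 and 5.91 to 203 and 350 FPKM. Among 9 further serine proteases, 2 of 20 tests rose and 1 fell, against 5.75% and 7.61% of all tests. The fall was that of Prss8 (prostasin) in HC, where 6.19% of all genes were called. It went from 2.77 to 4.79 FPKM to 0.75 to 1.56 (difference -1.07, SE 0.21, limma adjusted p = 0.0169).

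Genes with the pattern most like each of the 9 were ranked by Pearson's r of the 20 group means, over 16527 genes. Hgf was most like Vipr1 (0.98), Rerg (0.96) and Vstm4 (0.94). Met was most like Cxadr (0.98), Slc4a4 (0.98) and Prss36 (0.97). For Hgfac the 3 were Pklr, Cbs and Mmd2 (all 0.98), and for Hpn they were Ambp, Slc2a2 and Pigr (all 0.98). St14 was most like Pak6 (0.995), Ap1m2 (0.99) and Tesc (0.99), and Spint1 like Cldn6, Kcnk1 and Ehf (all 0.99). The other 3 genes had less close matches. Spint2 had 2900026A02Rik (0.94), Prkd3 (0.92) and Baiap2 (0.91), Plaur had Atf1 (0.94), Gm38431 (0.92) and Mapkapk3 (0.92), and Plau had Bach1 (0.87), Ptgs1 (0.84) and Itsn1 (0.84). Among the 9 themselves, Hgfac and Hpn had r = 0.87, Spint1 and Spint2 0.72, and Plau and its receptor Plaur 0.41.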

How the data were processed

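RNA of 10 sorted mouse liver populations was measured by RNA sequencing in 55 libraries. The authors deposited 1 table of FPKM with 36141 transcript rows, going by the name they gave it. CASAVA 1.8.2, Bowtie 1.0.0 and the build mm9 are listed per the submitters' processing notes, without a role. How reads were counted and the read depth are not given in the sources used here. No other sample columns were present (0). Table starts were read as counted from 0, and printed starts are from 1: the spans then equal RefSeq's in 7782 of 32044 transcripts, against 848 otherwise.

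Groups follow the sample titles. PH was compared with normal liver within each population on log2(FPKM + 1) using limma 3.58.1 (R 4.3.3), with trended and robust moderation, in two-sided tests at a Benjamini-Hochberg adjusted p under 0.05 over all genes with at least 1 FPKM in as many libraries as the smaller group has. Folds of genes with low FPKM come out too small on this scale. Population pairs and the F test of responses used a single fit of all 20 groups. It assumes 1 spread per gene for all groups, and groups of 2 libraries borrow their spread from the others. Each fit was tested on simulated counterparts of these libraries with known changes. The 9 genes and the gene lists were chosen with earlier results of these data known. All 9 genes are named. Of the lists, the 2 largest rises and falls per population were named, where no libraries overlapped, the change was 1 or more and the adjusted p was under 0.05, and the 3 most similar genes by r. Alternatives were a pseudocount of 0.1, no filter, quantile and upper-quartile scaling, the mean over a symbol's rows, a single fit, a replicate block and leaving out each library. Leaving out the blood sort and keeping only the 19570 symbols under 10 FPKM in hepatocytes were chosen after seeing the data. Figures used Python 3.11.15 and matplotlib 3.10.9. The values of 1 gene of the plasminogen activation list, included in its counts, are not reported here.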

Additional observations from a re-analysis of the deposited data

Results flagged for a closer look

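One library stood far from the others of its group. Plaur was at 309 FPKM in normal cBEC replicate 1, where the next library had 36.4 and the lowest 23.5. The gap exceeded the 95% critical value of Dixon's test. Among 33 groups of 4 or 5 libraries examined this was 1, where chance gives about 1.65.

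The response to PH differed between the 10 populations for 6 genes by the F test of the difference (limma). The adjusted p was 0.000895 for Hgf, 0.0231 for Hgfac, 0.0446 for Met, 1.43e-06 for Plau, 6e-07 for Spint2 and 0.000232 for St14. Without the blood sort it was 0.0049 for Hgf, 0.0462 for Hgfac, 0.0125 for Plau and 1.03e-06 for Spint2, while Met (0.110) and St14 (0.669) no longer passed.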

How the results depend on the processing

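The 9 calls of a PH response became 14 in a single fit of all 20 groups and 5 without the blood sort. They were 8 to 11 under the other settings and 7 to 12 when 1 library was left out. With only genes low in hepatocytes there were 7. That setting takes Met, Hgfac, Hpn and Spint2 out of testing, so the calls of Spint2 in KC and Hpn in the blood sort could not appear. Labels do not pair the libraries: over same-numbered HC libraries the correlation of deviations was -0.31, 0.50, -0.65 and 0.38, so the replicate block, which gave 11 calls, is only a description. With the block, Plau in LSEC (adjusted p = 0.0833) and Plaur in LSEC (0.184) no longer passed, and Hpn (0.0135) and Plau (0.022) in NPD, Plau in KC (0.0156) and Hgf in Thy1 (0.0117) did. The genes that differed in response were 5 to 7. Population pairs passing were 266 to 278 in normal liver and 255 to 284 after PH.

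Some differences that passed in no case changed sign. Met in HC was 0.000711 under quantile and 0.00293 under upper-quartile scaling, Hgf in cBEC -0.0419 with a pseudocount of 0.1 and -0.15 with the block, Plau in BEC 0.28 under quantile scaling, Hpn in BEC 0.0085 under upper-quartile scaling, St14 in BEC -0.13 with the block, and Hpn in Thy1 1.17 with a pseudocount of 0.1. Leaving out 1 library in turn gave a range of -0.30 to 0.17 for Met and -0.37 to 0.0494 for Spint2 in HC. In cBEC it gave -0.79 to 0.86 for Hgf, -0.50 to 0.024 for Hgfac, -0.023 to 0.45 for Hpn, -0.63 to 0.71 for Plaur and -0.23 to 0.0438 for Spint2. It gave -0.17 to 0.0618 for Hpn and -0.0419 to 0.13 for St14 in BEC, -0.23 to 0.00637 for Spint2 in NPD, -0.95 to 0.0241 for Hgf in EC, -0.42 to 0.0657 for Hgf in LSEC and -1.20 to 0.91 for Plau in HSC. In Thy1 cells it gave -3.09 to 2.56 for Hpn, -3.05 to 0.64 for Spint1, -1.06 to 0.0816 for Spint2 and -2.24 to 0.55 for St14, and -0.67 to 0.00212 for Plaur in the blood sort. The cause was not tested. With no depth given, counting error is unknown, and 2 libraries in a group limit what can be called.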
